A study of Mus musculus with 2 samples.

Results

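The mitochondrial ribosomal protein genes are the nuclear genes with symbols of the form Mrpl or Mrps followed by a number, and they were taken by that name pattern from the gene tables of 2 RNA-seq libraries. The pattern found 78 genes among the 52636 genes of each table, 51 of large-subunit proteins, 26 of small-subunit proteins and Mrps36. The libraries were the one labelled miR-29a KO (the KO library below), from C57BL/6 mice without the microRNA miR-29a, and the one labelled WT (the WT library below), from wild-type C57BL/6 mice. All mice were 8 weeks old, the labelled tissue was retina, and the retinas of 3 mice were pooled into each library. The labels say no more of the knockout allele. With 1 pooled library per genotype there was no replicate, so each difference below is between these libraries and not between the genotypes, and no test was possible. Errors are exact 95% counting intervals, which cover counting error only, as reads that carry no molecular identifier may be copies of 1 molecule.

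Mitochondria keep their own ribosome, which translates the few proteins encoded in mitochondrial DNA, all of them core subunits of the respiratory chain and ATP synthase. Its ribosomal RNAs come from mitochondrial DNA, whereas its proteins are encoded in the nucleus, made in the cytosol and imported. Some of these proteins descend from those of the bacterial ribosome, and others are found only in mitochondria. In the retina, photoreceptors are known for a high density of mitochondria and a high demand for respiration.

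The totals of counts were 24876925 in the KO library and 26805902 in the WT library. Mir29a, the targeted gene, had 0 counts in both tables, as had its cluster neighbour Mir29b-1, so these tables do not check the labels. The 16 markers looked up for retinal neurons, Mueller glia and pigment epithelium summed to 20 counts in the KO library and 31 in the WT library, and 9 of them were at 0 in both. The 7 fibroblast markers looked up were abundant in both libraries, with a sum of 15787 CPM (counts scaled to the library total) in the KO library and 13937 CPM in the WT library. The content of the libraries therefore did not match the retina label. The 5 macrophage markers looked up summed to 354 CPM in the KO library and 95.5 CPM in the WT library, and the 3 endothelial markers to 29.7 CPM in the KO library and 8.24 CPM in the WT library. The part of these cell types in the values below was not tested.

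As a group the mitochondrial ribosomal protein genes differed little between the libraries. Of the 78 genes, 77 had 50 or more counts in the higher library, the minimum used here. The median log2 ratio of miR-29a KO over WT, after adding 0.5 to each CPM, was -0.04 over these 77 genes and 0.06 over all 12382 genes past the minimum. The ratios of the 77 genes ran from -0.62 to 1.10 with quartiles at -0.26 and 0.27, and 37 were above 0 and 40 below. Their spread across genes was an SD of 0.356, against 0.592 over all genes. Summed counts of the 78 genes were 89784 in the KO library, 0.361% of its total (0.359% to 0.363%), and 104196 in the WT library, 0.389% of its total (0.386% to 0.391%). The summed share was thus 0.928 times that of WT (0.920 to 0.937). In such bulk libraries fewer cells of a type and less RNA per cell cannot be told apart.

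Few members passed a size threshold. At 2-fold, 1 member was higher in the KO library, where 4.47% of all genes past the minimum were, and 0 members were lower, where 2.82% of all genes were. At 1.5-fold, 4 members were higher, or 5.19% of the 77 against 13.3% of all genes, and 2 were lower, or 2.60% against 8.88%. The 4 higher ones were Mrps22, Mrps18c, Mrpl47 and Mrpl50, and the 2 lower ones were Mrps11 and Mrpl14. Just inside the threshold stood Mrpl50 at a log2 ratio of 0.66 and Mrpl14 at -0.60, and just outside it Mrpl35 at 0.58 and Mrpl4 at -0.56. Counting error was small beside many of these differences. The counting interval of the ratio lay above 1 for 25 of the 77 members, below 1 for 30 and spanned 1 for 22. Of all 12382 genes past the minimum it lay above 1 for 4992 (40.3%), below 1 for 3867 (31.2%) and spanned 1 for 3523. The split at 1.5-fold moved with the library scaling, to 4 higher and 6 lower with median-of-ratios factors. These factors lowered the ratios of all genes, whose median was then -0.004.

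**Figure D1:**
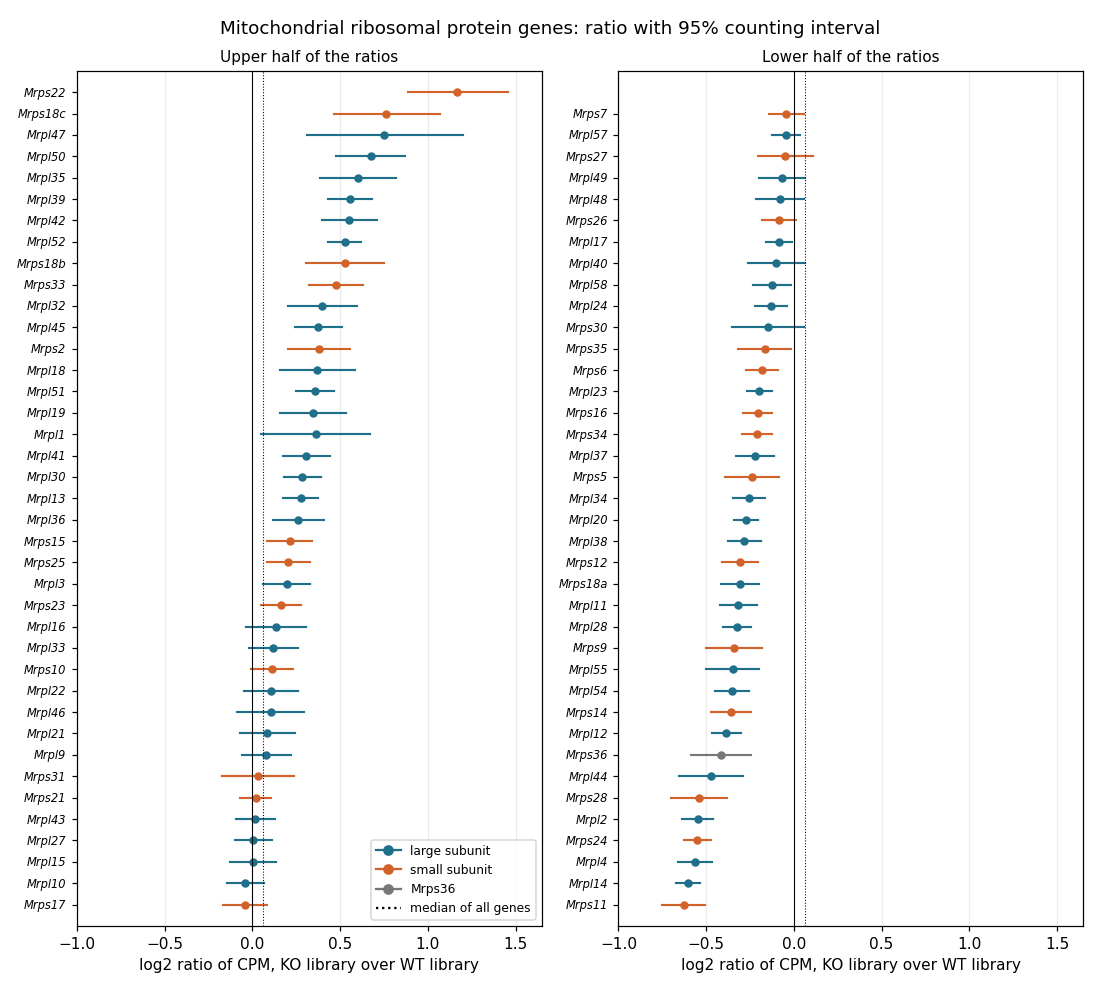
Each point is the CPM of a mitochondrial ribosomal protein gene in the KO library over that in the WT library, on a log2 axis with nothing added, for the 77 genes past the minimum. Horizontal lines are 95% counting intervals, colours give the subunit, the solid vertical line marks equal CPM and the dotted line the median of all genes. Mrps22 stands apart at the upper end, and the rest form a continuous series down to Mrps11.

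Large-subunit genes gave a median log2 ratio of 0.00, with 26 above 0 and 24 below, a median that lay at -0.03 with TMM factors and at -0.06 with median-of-ratios factors, and also below 0 in 3 of the other settings tried. Small-subunit genes gave a median of -0.05, with 11 above 0 and 15 below. Summed counts of the large subunit were 61427 in the KO library and 70799 in the WT library, and those of the small subunit were 27879 in the KO library and 32709 in the WT library. The ratio of large-subunit to small-subunit counts was accordingly close in both, at 2.20 in the KO library and 2.16 in the WT library. By descent, the 46 genes with a bacterial homologue had a median of -0.04 and their summed share was 0.884 times that of WT (0.874 to 0.894). These classes follow the names given to the proteins in structures of the ribosome, by which Mrps18a and Mrps18b count as specific to mitochondria although they are related to bacterial S18. The 30 measured genes of the class specific to mitochondria had a median of -0.01 and a summed share of 1.03 times that of WT (1.01 to 1.04). Within the small subunit, the 16 genes with a bacterial homologue had a median of -0.19 with 11 below 0, and the 10 specific to mitochondria a median of 0.10 with 4 below 0. With Mrps18a and Mrps18b counted among the bacterial homologues instead, a regrouping chosen after the values were seen, the small-subunit medians were -0.18 over 17 genes and 0.03 over 9 genes. The medians over both subunits were then still -0.04, over 48 genes, and -0.01, over 28 genes.

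**Figure D2:**
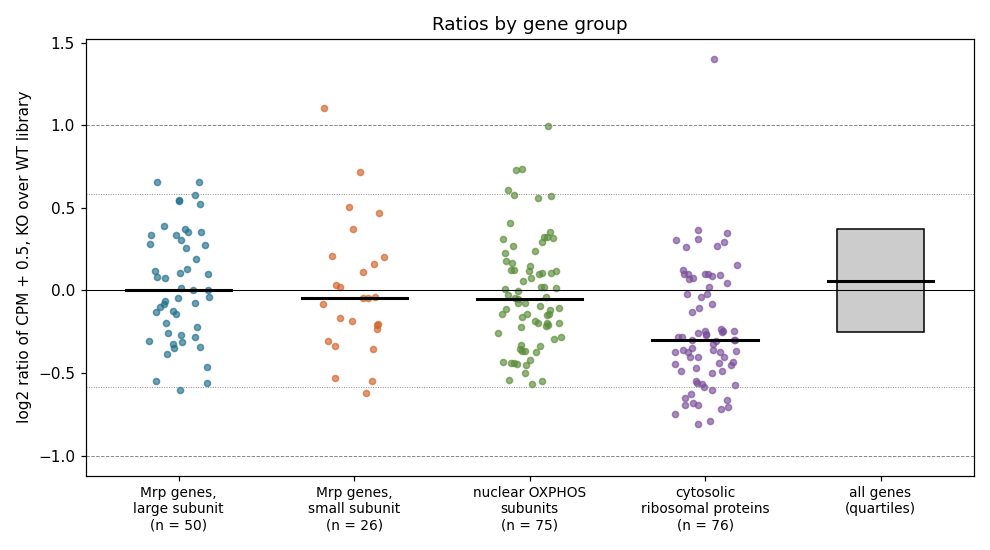
Points are log2 ratios of CPM + 0.5, miR-29a KO over WT, for single genes past the minimum, spread sideways at random, black bars are medians, dotted and dashed lines mark 1.5-fold and 2-fold, and the box on the right spans the quartiles of all genes. Mrps36 is not drawn. Large-subunit and small-subunit members lie around 0, with medians of 0.00 and -0.05, as do nuclear-encoded oxidative phosphorylation subunits at -0.05, whereas cytosolic ribosomal proteins have a median of -0.30.

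The stalk of the large subunit, the flexible arm that recruits translation factors, is built from Mrpl12 on a base of Mrpl10, Mrpl11, Mrpl53 and Mrpl54. Its 4 measured genes lay below 0, with a median of -0.33. Mrpl12, the homologue of bacterial L7/L12, had 2052 counts in the KO library and 2886 in the WT library, 1.31-fold lower (1.23 to 1.38). Mrpl54 had 1451 counts in the KO library and 1997 in the WT library, 1.28-fold lower (1.19 to 1.37). Mrpl10 had 1399 counts in the KO library and 1550 in the WT library, and its interval spanned 1. After subtraction of the median of genes of like transcript GC content and length, Mrpl10 and Mrpl54 moved to 0.02 and 0.03, while Mrpl11 stood at -0.52 and Mrpl12 at -0.19.

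Mrpl53 (chr6:83109040-83109939, GRCm38), the fifth stalk gene, had 0 counts in both libraries, which allows up to 0.121 CPM in the KO library and 0.112 CPM in the WT library. In GENCODE M21, 695 of its exon bases, 88.0%, also belong to exons of the gene model Gm42688 on the same strand. That model had 21 counts in the KO library and 17 in the WT library. The count of 0 for Mrpl53 therefore does not show that its transcript was missing, since reads in shared exons fit both genes.

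The central protuberance, which contacts the transfer RNAs and the small subunit, is represented by 7 genes with a median of -0.08. They ran from Mrpl55 at -0.34 to Mrpl18 at 0.36, and the other members were Mrpl27, Mrpl38, Mrpl40, Mrpl46 and Mrpl48. The 6 genes of proteins around the exit of the polypeptide tunnel had a median of 0.01. Among these, Mrpl45, which holds the ribosome to the inner membrane, had 995 counts in the KO library and 826 in the WT library, 1.30-fold higher (1.18 to 1.43). Mrpl47, the homologue of bacterial L29, had only 111 counts in the KO library and 71 in the WT library, 1.68-fold higher with a wide interval (1.24 to 2.30). Mrpl17, Mrpl22, Mrpl23 and Mrpl24 lay between -0.20 and 0.10.

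Mrpl14 (chr17:45686322-45698495), a protein of the face that meets the small subunit, was the most highly represented member per length and the lowest ratio of the large subunit. It had 2913 counts, or 117 CPM, in the KO library and 4767 counts, or 178 CPM, in the WT library, 1.52-fold lower (1.45 to 1.59). Mrpl4 had 1391 counts in the KO library and 2214 in the WT library, 1.48-fold lower (1.38 to 1.58). Mrpl2, which lies close to the peptidyl transferase centre, had 1794 counts in the KO library and 2828 in the WT library, 1.46-fold lower (1.38 to 1.55). All 3 are homologues of bacterial proteins, and all 3 transcripts are rich in GC, at 59.4%, 60.1% and 57.5%. With the GC and length correction their log2 ratios were -0.22 for Mrpl14, -0.20 for Mrpl4 and -0.27 for Mrpl2. Mrpl44, whose variants can cause cardiomyopathy in humans, had 422 counts in the KO library and 631 in the WT library, 1.39-fold lower (1.22 to 1.57), and kept its log2 ratio of -0.46 under that correction.

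At the other end of the large subunit, 5 genes besides Mrpl47 had log2 ratios between 0.52 and 0.66. Mrpl50 had 529 counts in the KO library and 357 in the WT library, 1.60-fold higher (1.39 to 1.83). Mrpl35, a homologue of a bacterial protein, had 422 counts in the KO library and 300 in the WT library, 1.52-fold higher (1.30 to 1.76). Mrpl39, Mrpl42 and Mrpl52, like Mrpl50, are found only in mitochondrial ribosomes. Mrpl39 had 1211 counts in the KO library and 887 in the WT library, 1.47-fold higher (1.35 to 1.61). Mrpl42 had 797 counts in the KO library and 586 in the WT library, 1.47-fold higher (1.32 to 1.63). Mrpl52 had 2193 counts in the KO library and 1640 in the WT library, 1.44-fold higher (1.35 to 1.54). Mrpl52 differed from the other 4 in GC content, at 56.7% against 42.3% to 48.2%, and its log2 ratio was 0.80 with the GC and length correction, while those of the others were between 0.17 and 0.34.

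The large subunit also holds proteins with small-subunit or other names. Mrps18a (large subunit) had 1187 counts in the KO library and 1584 in the WT library, 1.24-fold lower (1.15 to 1.34). Mrps30 had 368 counts in the KO library and 439 in the WT library, and its CPM ratio of 0.903 (0.784 to 1.04) had an interval that spanned 1. Mrpl58, a peptidyl-tRNA hydrolase that rescues stalled ribosomes and has become a structural protein of the large subunit, had 1262 counts in the KO library and 1484 in the WT library, 1.09-fold lower (1.01 to 1.18).

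In the small subunit, Mrps22 (chr9:98588730-98601660) had the highest ratio of all members. It is a protein found only in mitochondrial ribosomes, and human MRPS22 variants cause a combined respiratory chain deficiency. Mrps22 had 321 counts, or 12.9 CPM, in the KO library and 154 counts, or 5.75 CPM, in the WT library. The fold was 2.25 (1.85 to 2.74), and its log2 ratio stayed between 0.88 and 1.15 over 9 alternative settings, and it was under 2-fold with a pseudocount of 2 CPM, with the GC and length correction and with the authors' FPKM. The other 11 genes listed here for variants known in human disease, a list that is not complete, were Mrps28, Mrpl44, Mrpl12, Mrps14, Mrps34, Mrps16, Mrps7, Mrps23, Mrpl3, Mrps25 and Mrps2, and the median of the 12 was -0.12 with 7 below 0.

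Mrps18b and Mrps18c are proteins at different places of the small subunit that are related to each other and to Mrps18a. Both were higher in the KO library, unlike Mrps18a. Mrps18c (chr5:100798627-100804471) had 238 counts in the KO library and 151 in the WT library, 1.70-fold higher (1.38 to 2.10). Mrps18b had 397 counts in the KO library and 297 in the WT library, 1.44-fold higher (1.24 to 1.68). Correction for GC content and length left these log2 ratios at 0.56 for Mrps18c, 0.62 for Mrps18b and -0.09 for Mrps18a.

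Mrps11 (chr7:78783119-78792989), a homologue of bacterial S11, had the lowest ratio of all members. It had 866 counts, or 34.8 CPM, in the KO library and 1443 counts, or 53.8 CPM, in the WT library, 1.55-fold lower (1.42 to 1.68). With the GC and length correction its log2 ratio was -0.41, and the lowest member was then Mrps14, a homologue of bacterial S14, at -0.69. The 3 genes of the decoding centre and of the entry path of the messenger RNA were all below 0. With the GC and length correction Mrps24 stood at -0.33 and Mrps5 at -0.49, while Mrps12 was in effect at 0, at -0.03. Mrps24, the homologue of bacterial S3, had 2198 counts in the KO library and 3471 in the WT library, 1.47-fold lower (1.39 to 1.55). Mrps12, in which changes of the bacterial homologue give streptomycin resistance, had 1317 counts in the KO library and 1757 in the WT library. Mrps5, the homologue of bacterial S5, had 621 counts in the KO library and 790 in the WT library. Mrps28, a small-subunit protein with human disease variants, had 538 counts in the KO library and 843 in the WT library, 1.45-fold lower (1.30 to 1.62).

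Mrps36 carries a ribosomal name but is known as a subunit of the 2-oxoglutarate dehydrogenase complex of the citric acid cycle and is absent from structures of the mammalian mitochondrial ribosome. It had 478 counts in the KO library and 688 in the WT library, and its CPM in the KO library was 0.749 times that in the WT library (0.665 to 0.843). The median over members did not move at 2 decimals when it was left out.

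Levels can be compared between members only per length. On the authors' FPKM scale, which divides counts by exon length and library size, the highest mean level, that of Mrpl14, was 195 times the lowest, that of Mrpl47. Mrpl14 stood at 126 FPKM in the KO library and 198 FPKM in the WT library. Next by mean level came Mrpl34, at 115 FPKM in the KO library and 143 FPKM in the WT library, with 1712 counts in the KO library and 2206 in the WT library, 1.20-fold lower (1.12 to 1.27). Mrps21 followed at 113 FPKM in the KO library and 116 FPKM in the WT library, with 2039 counts in the KO library and 2167 in the WT library. Its CPM ratio of 1.01 (0.954 to 1.08) had an interval that spanned 1. Mrpl28 stood at 75.4 FPKM in the KO library and 98.2 FPKM in the WT library, with 2349 counts in the KO library and 3169 in the WT library, 1.25-fold lower (1.19 to 1.32). Mrpl20 stood at 76.3 FPKM in the KO library and 95.8 FPKM in the WT library, with 3103 counts in the KO library and 4040 in the WT library, 1.21-fold lower (1.15 to 1.27). These and Mrpl14 are homologues of bacterial proteins, and the sixth by mean level was the stalk protein Mrpl54, at 71.9 FPKM in the KO library and 95.5 FPKM in the WT library.

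At the lower end of the 77 genes past the minimum stood Mrpl47, at 1.03 FPKM in the KO library and 0.634 FPKM in the WT library. Mrpl1, the homologue of bacterial L1, was next at 1.84 FPKM in the KO library and 1.49 FPKM in the WT library, with 193 counts in the KO library and 162 in the WT library, 1.28-fold higher (1.04 to 1.59). Mrps22 and Mrps30 came after it. Mrps22 stood at 3.29 FPKM in the KO library and 1.52 FPKM in the WT library, and Mrps30 at 2.26 FPKM in the KO library and 2.60 FPKM in the WT library. The order was nearly the same in both libraries, with a Spearman rho of 0.977 across the 77 genes, which are not independent replicates. The median member, at 15.7 FPKM in the KO library and 17.4 FPKM in the WT library, stood above 72.8% of the protein-coding genes past the minimum in the KO library and above 74.7% in the WT library.

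The length behind the FPKM values shapes this order. For 70 of the 77 genes the length implied by count and FPKM lay within 1% of the union of all annotated exons in GENCODE M21, and for 19 of them it was over 2 times the length of the principal transcript. The extreme was Mrpl33, the homologue of a very small bacterial protein, with an implied length 15.3 times that of its principal transcript. By FPKM Mrpl33 ranked 67 among the 77 genes, and by CPM per kb of principal transcript it ranked 16. Likewise Mrps10 ranked 62 by FPKM and 24 per kb of principal transcript, Mrpl13 55 and 22, and Mrpl23 29 and 4. Mrpl14 ranked 1 and Mrpl47 ranked 77 by either length. The ratio between libraries does not depend on this choice, since the same length stands in both.

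**Figure D3:**
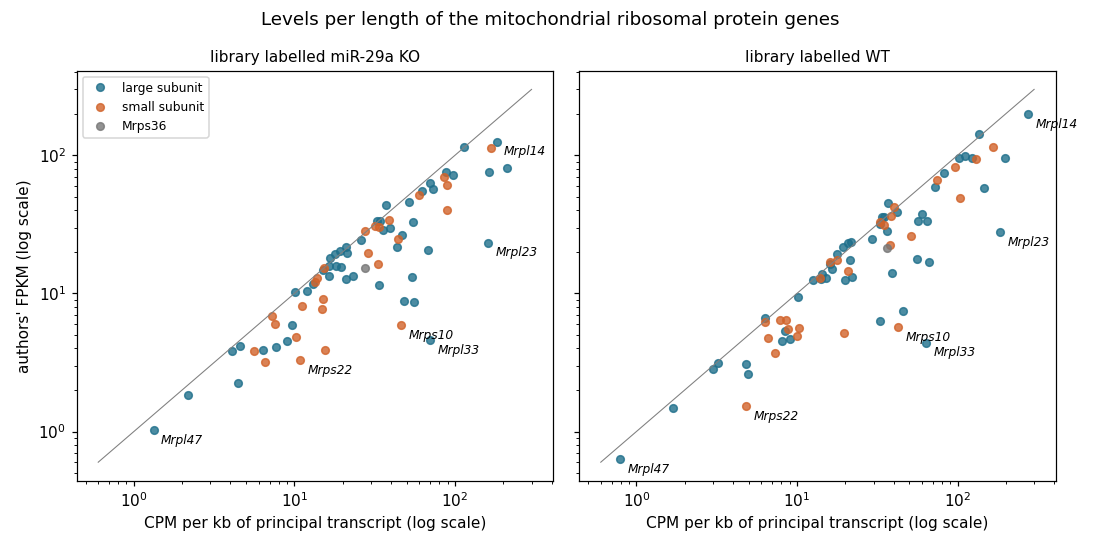
Each point is a mitochondrial ribosomal protein gene, with CPM per kilobase of its principal transcript on the horizontal axis and the authors' FPKM on the vertical axis, both on log scales, with the KO library on the left and the WT library on the right. The grey line marks equal values, and points far below it, such as Mrpl33, Mrps10 and Mrpl23, are genes whose FPKM was divided by a length well above that of the principal transcript.

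Base composition moved with the ratio. Across the 77 genes the log2 ratio and the GC content of the principal transcript had a Spearman rho of -0.504, and across 12371 genes past the minimum with a value it was -0.455, so members shared this slope with the rest of the table. All genes share the same 2 libraries, and no p is given. The 39 members at or above their median GC content of 50.1% had a median log2 ratio of -0.18 with 24 below 0, and the 38 members below it a median of 0.11 with 16 below 0. With the median of genes of like GC content and length subtracted, the members' median was 0.00 and their SD 0.314, against 0.548 over all genes. The members' ratio also had a rho of -0.514 with mean CPM, which was -0.041 over all genes, and -0.234 for the members after the correction. Among the genes far from 0, Mrps22, Mrps18c and Mrpl47 had GC contents between 45.3% and 47.3%, Mrpl50 had 42.3%, Mrps11 had 55.1% and Mrpl14 had 59.4%. What lies behind the slope was not tested.

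**Figure D4:**
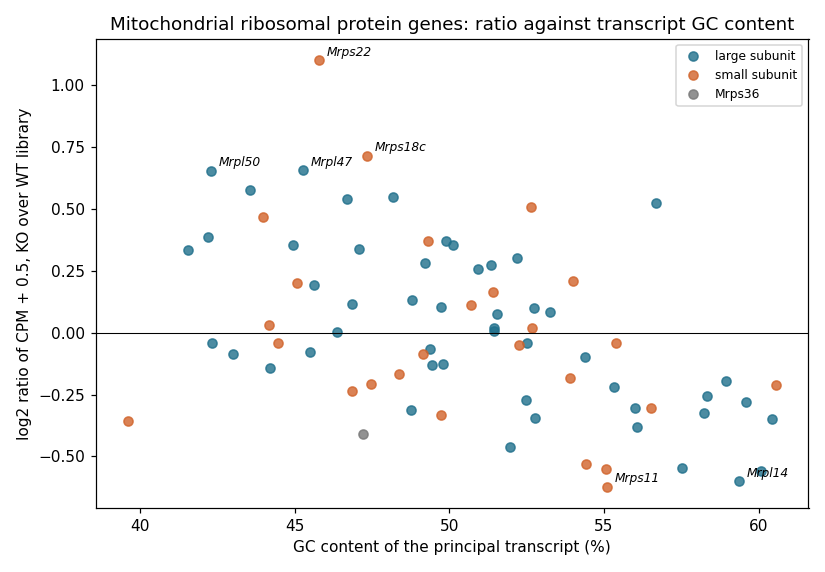
Each point is a mitochondrial ribosomal protein gene past the minimum, with the GC content of its principal transcript in percent on the horizontal axis and its log2 ratio of CPM + 0.5, miR-29a KO over WT, on the vertical axis, coloured by subunit. Ratios tend downward toward high GC content, with Mrpl50, Mrpl47, Mrps18c and Mrps22 at the upper left and Mrps11 and Mrpl14 at the lower right.

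The microRNA missing in the knockout recognises transcripts through bases 2 to 8 of its mature strand, shown in capitals (RefSeq, GRCm38.p6, chr6:31062673-31062694, minus strand), and a transcript can pair with them through the heptamer TGGTGCT in its 3′ UTR. The longest annotated 3′ UTR of each gene was searched, which need not be that of the principal transcript. For Mrps34 it had 1182 bases, whereas the whole principal transcript has 918. In these 3′ UTRs the heptamer was present in 11 of the 78 members, 14.1%, against 17.4% of 11585 protein-coding genes past the minimum with an annotated 3′ UTR. The 3′ UTRs of members were short, with a median of 492.5 bases against 1399 bases. A match is a description of letters and not a shown binding site.
mmu-miR-29a-3p: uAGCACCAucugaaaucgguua

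The 11 genes were Mrpl1, Mrpl11, Mrpl32, Mrpl35, Mrpl37, Mrpl47, Mrps5, Mrps14, Mrps17, Mrps34 and Mrps35. Their median log2 ratio was -0.16, with 4 above 0 and 7 below, and the 66 measured members without the heptamer had a median of -0.02. The 11 had a median GC content of 45.3% and transcript length of 3364 bases, against 51.4% and 1208 bases for the 66. With the GC and length correction the ratios of the 11 ran from -0.69 for Mrps14 to 0.36 for Mrpl47. Over the 11585 protein-coding genes past the minimum with an annotated 3′ UTR, the median was 0.13 with the heptamer and 0.05 without. Those with it had a median transcript length of 4198 bases and GC content of 49.8%, against 2871 bases and 50.7%. No median with the GC and length correction is given for either these genes or the 11 members. Mrpl11 and Mrpl32 held 2 copies each. Mrpl32 had 475 counts in the KO library and 388 in the WT library, 1.32-fold higher (1.15 to 1.51). Mrpl11 had 1265 counts in the KO library and 1697 in the WT library, 1.24-fold lower (1.16 to 1.34). Members with a pair of copies thus lay on both sides of 0. The sites of these genes, of Mrpl47 and Mrpl35 with the highest ratios and of Mrps14 with the lowest are shown in transcript direction with the heptamer in capitals and their positions in GRCm38. Of the 13 sites in all, only the second of Mrpl32 is followed by an A, the longer form of match that many microRNA targets have.
Mrpl32, chr13:14610050-14610078, minus strand: ttcttctttgtTGGTGCTttagaacaatt
Mrpl32, chr13:14609266-14609294, minus strand: tggttttaaatTGGTGCTaaggaactcta
Mrpl11, chr19:4965100-4965128, plus strand: taaccaaagctTGGTGCTttataaagaaa
Mrpl11, chr19:4965143-4965171, plus strand: cttctgattcaTGGTGCTggagtatggca
Mrpl47, chr3:32726453-32726481, minus strand: ttattagaaggTGGTGCTttgtactcata
Mrpl35, chr6:71814956-71814984, minus strand: agccaccatgtTGGTGCTgggaattgaac
Mrps14, chr1:160200138-160200166, plus strand: acgtgggtgccTGGTGCTggaggccagag

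Genes of the mitochondrial ribosome are known targets of the transcription factors NRF1, GABP of the ETS family, and YY1. Promoters of 300 bases (250 before to 50 after the start, RefSeq, GRCm38.p6) were at hand for 69 of the 78 members and were searched on both strands. The NRF1 core CGCATGCG, which is its own reverse complement, was in 7 promoters, 10.1%, against 4.55% of the 9107 promoters of protein-coding genes past the minimum. The ETS core CCGGAAG was in 26, 37.7% against 20.6%, and the YY1 core AAGATGGCG in 8, 11.6% against 3.70%. At least 1 of the 3 was in 36 promoters, 52.2% against 26.7%. Over all 27025 promoters of the table the shares were 2.07%, 9.93% and 1.64% for NRF1, ETS and YY1, and 12.8% for any. Median log2 ratios of members with and without the motif were 0.10 and -0.04 for NRF1, 0.02 and -0.04 for ETS, and -0.13 and 0.01 for YY1.

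The promoters of the highest and lowest members are shown to let their motifs be compared, in transcript direction with matches in capitals. Mrps22 (chr9:98601630-98601929, minus strand) has the ETS core close to its start. Mrps11 (chr7:78782881-78783180, plus strand) has the YY1 core as its reverse complement. Mrpl14 (chr17:45686099-45686398, plus strand) has none of the 3 in these 300 bases.
Mrps22 promoter: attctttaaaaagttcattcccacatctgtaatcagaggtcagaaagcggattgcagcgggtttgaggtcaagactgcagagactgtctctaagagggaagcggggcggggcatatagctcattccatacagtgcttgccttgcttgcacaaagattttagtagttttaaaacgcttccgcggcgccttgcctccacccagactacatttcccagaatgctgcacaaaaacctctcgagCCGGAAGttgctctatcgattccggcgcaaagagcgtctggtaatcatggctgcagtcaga
Mrps11 promoter: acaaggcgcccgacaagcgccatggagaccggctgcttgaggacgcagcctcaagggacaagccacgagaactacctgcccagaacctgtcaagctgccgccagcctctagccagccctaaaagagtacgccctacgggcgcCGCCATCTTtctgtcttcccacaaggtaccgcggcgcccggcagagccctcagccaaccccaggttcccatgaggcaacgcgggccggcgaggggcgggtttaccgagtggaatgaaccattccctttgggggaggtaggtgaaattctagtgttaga
Mrpl14 promoter: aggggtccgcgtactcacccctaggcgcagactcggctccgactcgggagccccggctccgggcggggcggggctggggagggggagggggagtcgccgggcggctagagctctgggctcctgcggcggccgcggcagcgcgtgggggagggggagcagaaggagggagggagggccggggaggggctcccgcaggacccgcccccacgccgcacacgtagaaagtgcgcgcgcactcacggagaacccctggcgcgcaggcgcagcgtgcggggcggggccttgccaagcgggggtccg

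Some members share their start region with a neighbour read in the opposite direction. Of the 78 genes, 26 had a protein-coding gene starting head to head within 1000 bp. Such neighbours were looked up for members only, so it was not tested whether this share differs from that of all genes. In 23 such pairs both genes passed the minimum, and in 11 of the 23 the ratios had the same sign. The absolute difference of log2 ratios within a pair had a median of 0.41 and a maximum of 1.18. Mrps11 and Mrpl46, which is a central protuberance gene, are such a pair. Their outermost annotated starts in GENCODE M21 overlap by 412 bases, and 173 exon bases belong to both. The RefSeq starts used for the promoters can differ from these. Mrpl46 had 461 counts in the KO library and 462 in the WT library, a log2 ratio of 0.10, beside -0.62 for Mrps11. The largest difference was that of Mrps18c at 0.71 and Helq, a DNA helicase gene, at -0.46, with Helq at 76 counts in the KO library and 118 in the WT library. Mrpl50 at 0.66 and the zinc finger gene Zfp189 at 0.71 were alike, although Zfp189 had only 81 counts in the KO library and 48 in the WT library. These pairs were picked after their values were seen.

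Shared exons limit some of these values. The library kit does not mark strand, and 33 members share exon bases with another gene, so that reads there cannot be told apart by strand. Mrps25 shares 69.8% of its exon bases with Nr2c2 on the other strand, and Mrps34 shares 63.4% with Mapk8ip3. Of the members past 1.5-fold, Mrps11, Mrpl14, Mrpl47 and Mrps18c have such shared bases, and Mrps22 and Mrpl50 have none. Without the 33 genes, 2 members were higher at 1.5-fold and 0 were lower, and the median of the remaining 45 was -0.04. Pseudogene copies named after members were few and low: Mrpl23-ps1 had 52 counts in the KO library and 51 in the WT library, Mrpl48-ps had 24 in the KO library and 21 in the WT library, and those of Mrps36 had at most 6 in either.

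Proteins of the ribosome with other names and the factors around it were set beside the members. Of the 5 mitoribosomal proteins with other names, 0 were higher and 1 was lower at 1.5-fold, and the median was -0.19, or 0.02 with the GC and length correction. Gadd45gip1, a large-subunit protein near the polypeptide exit, had 547 counts in the KO library and 1023 in the WT library, 1.74-fold lower. Ptcd3, a small-subunit protein, had 533 counts in the KO library and 400 in the WT library, 1.44-fold higher. Dap3, the GTP-binding small-subunit protein, had 2139 counts in the KO library and 2691 in the WT library, 1.17-fold lower. The ribosomal RNA genes mt-Rnr1 and mt-Rnr2, after ribosomal RNA had been removed from the samples, had 2640 and 3175 counts in the KO library and 2237 and 2627 in the WT library. Such remaining counts also depend on how complete the removal was, which was not tested.

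Assembly and RNA modification factors, 25 of 26 past the minimum, had a median of -0.08. At 1.5-fold 2 were higher and 1 was lower, or 8% and 4% against 13.3% and 8.88% of all genes. Mterf3, of the mTERF family of mitochondrial transcription and ribosome assembly factors, had 239 counts in the KO library and 127 in the WT library, 2.03-fold higher in CPM (1.63 to 2.54). The GTPase Gtpbp10 had 222 counts in the KO library and 141 in the WT library, 1.70-fold higher. Rbfa, a small-subunit maturation factor, had 1083 counts in the KO library and 1944 in the WT library, 1.67-fold lower. The 16 translation factors had a median of 0.22, or 0.01 with the GC and length correction, with 2 higher (12.5%) and 1 lower (6.25%). Lrpprc, which stabilises mitochondrial messenger RNAs, had 1042 counts in the KO library and 610 in the WT library, 1.84-fold higher, and its partner Slirp had 62 in the KO library and 39 in the WT library. The initiation factor Mtif3 had 252 counts in the KO library and 423 in the WT library, 1.56-fold lower.

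The 17 mitochondrial aminoacyl-tRNA synthetases had a median of 0.04, which was below 0 under 4 of the alternatives. At 1.5-fold 1 was higher and 2 were lower, or 5.88% and 11.8% against 13.3% and 8.88% of all genes. The higher one, Iars2, had 1468 counts in the KO library and 1024 in the WT library. Of the lower ones, Aars2 had 333 counts in the KO library and 560 in the WT library, and Sars2 had 282 in the KO library and 472 in the WT library. Of the genes of mitochondrial transcription and DNA maintenance, 9 of 10 passed the minimum, with a median of 0.17 and 0 past 1.5-fold in either direction. Tfb2m, Tefm and Polg2 had the largest ratios in size, at 0.53, 0.49 and -0.51. Of 9 regulators of mitochondrial biogenesis 7 passed the minimum, with a median of 0.18 and 1 lower at 1.5-fold. That gene was Esrra, an orphan nuclear receptor that acts with the PGC-1 coactivators, with 1889 counts in the KO library and 3105 in the WT library, a CPM ratio of 0.656 (0.619 to 0.694). The next in size were the transcription factor Yy1, with 2033 counts in the KO library and 1656 in the WT library, 1.32-fold higher, and the GABP subunit gene Gabpb1, with 262 in the KO library and 211 in the WT library, 1.34-fold higher. The coactivator genes themselves were under the minimum, Ppargc1a with 40 counts in each library and Ppargc1b with 20 in the KO library and 29 in the WT library.

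**Figure D5:**
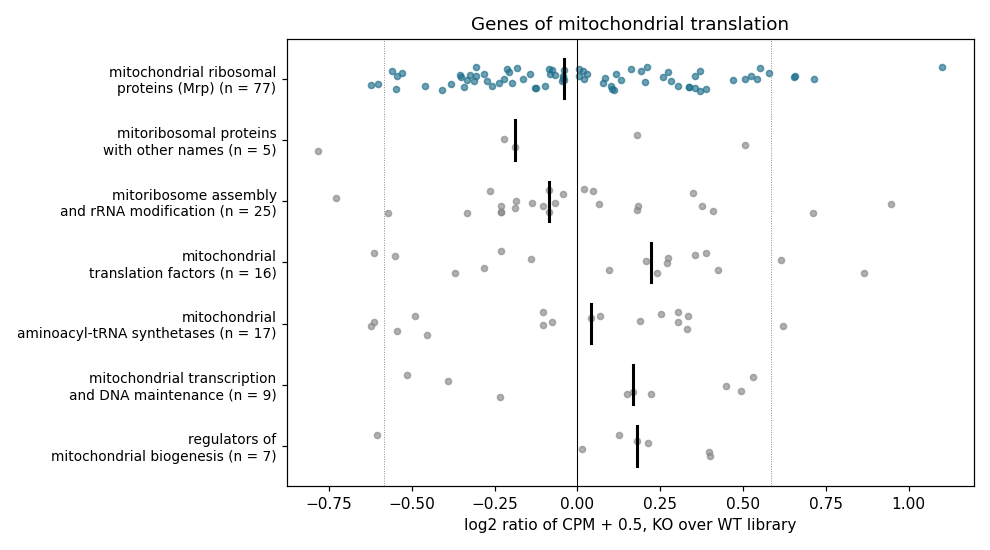
Points are log2 ratios of CPM + 0.5, miR-29a KO over WT, for genes past the minimum in each list, bars are medians, the solid line marks 0 and dotted lines mark 1.5-fold. The members, in the top row, have a median of -0.04, and the smaller lists below have medians between -0.19 and 0.22 with wide spreads.

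The cytosolic ribosomal proteins and the nuclear-encoded subunits of oxidative phosphorylation are the gene groups most like the members in kind. The 76 cytosolic ribosomal protein genes had a median of -0.30 with 56 below 0. At 1.5-fold 1 was higher and 13 were lower, or 1.32% and 17.1% against 13.3% and 8.88% of all genes. The higher one, Rpl29 of the large cytosolic subunit, had 5852 counts in the KO library and 2376 in the WT library, 2.65-fold higher. Rpl18, also of the large subunit, had 46681 counts in the KO library and 88166 in the WT library, 1.75-fold lower. Rps3, of the entry path of the messenger RNA in the small subunit, had 64980 counts in the KO library and 121175 in the WT library, 1.73-fold lower. The members' summed counts were 0.0405 times those of the cytosolic genes in the KO library and 0.0335 times in the WT library. The 75 oxidative phosphorylation genes had a median of -0.05 with 42 below 0, and 4 were higher (5.33%) and 0 lower at 1.5-fold. Uqcrb, a complex III subunit, had 1177 counts in the KO library and 628 in the WT library, 2.02-fold higher in CPM. Cox7b of complex IV had 2351 counts in the KO library and 1516 in the WT library, 1.67-fold higher, and Ndufs1 of complex I had 1746 in the KO library and 1130 in the WT library, 1.66-fold higher. The genes whose messages the mitochondrial ribosome reads had a median of 0.22 over the 11 of 13 past the minimum, or -0.05 with the GC and length correction. Of these, mt-Atp6, mt-Co3 and mt-Co2 were higher at 2-fold, with 527, 538 and 583 counts in the KO library and 193, 210 and 303 in the WT library. These counts are far below the median count of the 11 genes, 14051 in the KO library and 13329 in the WT library. Why they are so low was not tested. The summed share of the whole list was 1.11 times that of WT (1.10 to 1.12). Without replicates it was not tested whether any of these groups differs from the members beyond variation between mice.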

How the data were processed

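RNA-seq was made from total RNA after removal of ribosomal RNA with a Ribo-Zero kit, with a NEBNext Ultra RNA kit that does not mark strand, per the labels' protocols. Per the file headers, each deposited table pairs the count of every gene with its FPKM. The submitters' processing notes name HISAT2 and the builds mm10 and GRCm38. How reads were counted, with which strand setting and annotation, and how FPKM was scaled is not given in the sources used here. Counts as deposited by the authors are whole numbers and entered unchanged. The authors' FPKM served for levels per length and as an alternative.

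Counts were divided by their total (24876925 in the library labelled miR-29a KO and 26805902 in the library labelled WT) to give CPM. The log2 ratio, miR-29a KO over WT, was taken after adding 0.5 CPM, for genes whose larger count was at least 50. Folds are ratios of CPM with nothing added, with exact (Clopper-Pearson) 95% counting intervals, and a count of 0 allows up to 3 counts. Thresholds of 2-fold and 1.5-fold describe size only. For 4 genes, none a member, count and FPKM disagreed between the tables by over 1%, and these were left out. Positions, transcripts, GC content and 3′ UTRs came from GENCODE M21 (52403 of 52636 identifiers and all 78 members matched), microRNA and promoter sequences from RefSeq (GRCm38.p6). The principal transcript gave GC content and length, and the longest annotated 3′ UTR of any transcript of a gene was searched for the heptamer. The members and gene lists were chosen with earlier results of these data known. Members were given with full values where they had the 8 highest or 8 lowest ratios, the 6 highest or 4 lowest mean FPKM, or a special role (Mrps18a, Mrps18b, Mrps18c, Mrps36, Mrps30, Mrpl58, Mrpl12), and of the other lists the 3 genes of largest absolute ratio. Other genes were picked with their values in view.

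Alternatives were TMM factors from edgeR 4.0.16 (R 4.3.3), median-of-ratios factors, pseudocounts of 0.1 and 2 CPM, a count minimum of 200 or no minimum, a library total that leaves out mitochondrial and rRNA genes and the top 20 by count, centring on the median of 10 bins of GC content and then of 10 bins of length, the authors' FPKM with 0.5 added, and leaving out members with shared exons, with named pseudogenes, or Mrps36. Counting Mrps18a and Mrps18b with the bacterial homologues was added after seeing the data. Intervals and size rules were run on simulated counts with counting error only. Such counts hold no duplicate reads and no variation between mice, so this run checks the calculation and not the error of these libraries. Tables, intervals and plots were made with matplotlib 3.10.9, scipy 1.17.1, pandas 2.3.3 and numpy 2.4.6 under Python 3.11.15. Protein sequences were not analysed here.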

Additional observations from a re-analysis of the deposited data

How the results depend on the processing

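The median log2 ratio of the members lay between -0.11 (median-of-ratios factors) and -0.00 (GC and length correction) under the 12 alternatives run. With the GC and length correction it was in effect 0, with 39 of 77 members below 0. Its difference from the median of all genes was then -0.0008, against -0.10 in the main setting. With median-of-ratios factors that difference was still -0.10, as the ratios of all genes moved too. The count of members lower at 1.5-fold was 6 with median-of-ratios factors, 6 with the authors' FPKM, 1 with the GC and length correction and 0 without members with shared exons, against 2. Median-of-ratios factors and FPKM also lowered all genes, to medians of -0.004 and 0.005 against 0.06. The counts of 6 are therefore not a result about the members alone. Shares of all genes past 1.5-fold under these settings are not given here. The 1 under the GC and length correction was Mrps14 (-0.69), and neither Mrps11 (-0.41) nor Mrpl14 (-0.22) passed there, whereas both median-of-ratios factors and FPKM kept these 2 and added Mrpl2, Mrpl4, Mrps24 and Mrps28. The count higher at 1.5-fold was 2 with the authors' FPKM and 2 without members with shared exons, against 4. It was 3 with the GC and length correction, Mrps22 (0.88), Mrpl52 (0.80) and Mrps18b (0.62), of which 1 was among the 4, with Mrps18c (0.56), Mrpl47 (0.36) and Mrpl50 (0.32) below the threshold. The 1 member higher at 2-fold, Mrps22, left 0 with a pseudocount of 2 CPM, 0 with the GC and length correction and 0 with the authors' FPKM. The GC and length correction put 53 of 77 members outside their counting intervals and changed the sign of 15, against 4 with TMM factors, 5 with median-of-ratios factors and 5 with FPKM. It moved the medians of other lists to 0.0234 (proteins with other names), 0.0135 (translation factors), -0.0774 (aminoacyl-tRNA synthetases), 0.0286 (transcription and DNA maintenance) and -0.0514 (mitochondrially encoded proteins), and a minimum of 200 counts moved that of the synthetases to -0.0889. Of a total that leaves out mitochondrial and rRNA genes and the top 20 by count, the members' share of counts was 0.413% in the KO library and 0.445% in the WT library. The cause of these shifts was not tested beyond what each setting is made of. Depth limited the values of Mrpl47, Mrpl1 and Mrps18c most, with counts under 250 in both libraries. It also limited Mrps22, which had 154 counts in the WT library, beside 162 for Mrpl1 and 151 for Mrps18c. No paired analysis was possible because each group holds 1 library, so the groups share fewer than 2 replicate numbers.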
